A study of Homo sapiens with 9 samples.

Results

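The 10 genes described here, DNM1L, FIS1, MFF, MIEF1, MFN1, MFN2, OPA1, OMA1, PINK1 and FUNDC1, encode proteins that divide mitochondria, fuse them, or mark them for removal. They were taken by gene name, with no threshold on a measured value, from a deposited table of 78986 gene rows, and each name matched 1 row. RNA-seq was analysed in 9 libraries of stable human embryonic kidney (HEK) lines, 3 each from cells expressing WT, G245S or R273H p53, to ask how mutant p53 differs from WT p53 at the level of mRNA. G245S and R273H are amino acid substitutions in the DNA-binding domain of p53, and the number in each name is the residue position.

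All 3 lines were made by lentiviral transduction of HEK293T cells and were grown with 1.5 µg/mL puromycin. The cell line field of the labels lacks the T that the culture description gives, and HEK293T is a derivative that carries the SV40 large T antigen, which binds and inhibits the endogenous p53. The WT line is therefore a line with added p53 and serves as the control, and a line without a transgene is not analysed here. The labels call the replicates biological, each group is 1 stable line, and a difference between lines cannot be told apart from a difference between p53 forms. The promoter of the lentiviral transgene and whether the lines are clonal are not given in the sources used here. The defining markers of the line were present, with VIM (vimentin) between 463 and 582 and NEFM (a neurofilament subunit) between 125 and 193 CPM (counts scaled to library size, with TMM, the trimmed mean of M-values) over the 9 libraries. CD3E, a T cell marker, was at 0 in every library and the endothelial marker CDH5 did not exceed 0.547 CPM.

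Mitochondria form a network that is cut and joined continuously. DNM1L (also called DRP1) is the cytosolic dynamin GTPase that constricts the outer membrane, and MFF, MIEF1 and FIS1 sit in that membrane and serve as its receptors or adaptors. MFN1 and MFN2 are outer membrane GTPases that tether and fuse neighbouring mitochondria, OPA1 is the dynamin-like GTPase that fuses the inner membrane, and OMA1 is the inner membrane protease that cleaves OPA1 under stress. PINK1 is a kinase that accumulates on depolarised mitochondria and starts their tagging with ubiquitin, while FUNDC1 is an outer membrane receptor that binds LC3 and serves mitophagy in hypoxia. Much of the control of these proteins is by phosphorylation, cleavage and protein turnover, none of which mRNA measures.

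WT replicate 3 stood apart before any comparison was made. It held 1486315 counts against 7325514 to 9667306 in the other 8 libraries, and it was left out of the fits by a rule on depth alone. The epithelial keratins KRT8 and KRT18 reached 54.8 and 161 CPM in it, the highest values of the series for both, while the 10 genes held 0.0583% of its counts against 0.0647% to 0.0711% in the others. Of the values of the 10 genes in that library, 7 had an exact 95% Poisson interval that overlapped the range of the 2 other WT libraries, and those of FIS1, OPA1 and PINK1 did not. Its values for the 10 genes are printed beside the others.

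The RefSeq promoter table (GRCh38.p14, 250 bases before to 50 after a start) held windows for 9 of the 10 genes, 11 in all because MFF had 3. The sequences below show what the fusion genes MFN1 and OPA1 and the mitophagy receptor FUNDC1 carry upstream of the first base that the deposited table annotates for the gene, beside the site found in DDB2, a p53 target whose RNA fell in both mutants. Capitals mark the GC box (GGGCGG), the CCAAT box (CCAAT), the ETS core (CCGGAAG) and the NRF1 core (GCGCATGC), each on either strand, and in DDB2 they mark the p53 half-sites. The MFN1 stretch is chr3:179347459-179347708 on the plus strand, the OPA1 stretch chr3:193592958-193593143 on the plus strand, the FUNDC1 stretch chrX:44542860-44543109 on the minus strand, and the DDB2 site chr11:47214979-47214999 on the plus strand, 6 to 26 bases after a RefSeq start.
MFN1: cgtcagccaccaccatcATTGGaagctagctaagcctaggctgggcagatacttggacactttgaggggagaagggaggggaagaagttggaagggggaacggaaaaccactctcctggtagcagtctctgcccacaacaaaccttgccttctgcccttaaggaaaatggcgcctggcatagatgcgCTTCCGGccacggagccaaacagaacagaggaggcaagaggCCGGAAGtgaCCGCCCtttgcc
OPA1: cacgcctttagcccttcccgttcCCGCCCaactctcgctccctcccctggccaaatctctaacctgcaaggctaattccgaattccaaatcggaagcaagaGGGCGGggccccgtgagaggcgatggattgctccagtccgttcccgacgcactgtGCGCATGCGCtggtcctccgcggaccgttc
FUNDC1: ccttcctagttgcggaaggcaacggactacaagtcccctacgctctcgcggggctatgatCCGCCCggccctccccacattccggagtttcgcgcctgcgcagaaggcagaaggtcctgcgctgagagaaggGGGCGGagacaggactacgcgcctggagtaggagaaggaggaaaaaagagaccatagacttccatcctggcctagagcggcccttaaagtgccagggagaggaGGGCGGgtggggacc
DDB2: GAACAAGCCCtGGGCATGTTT

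A GC box was in the windows of 8 of the 9 genes, against 45% of all 35116 windows. A CCAAT box was in those of 6, against 34.6%. A gene was counted if any of its windows held the motif, while the shares are per window. The windows of the 9 genes held 33.7% to 71.3% G and C, and the median over all windows was 58.7%. The ETS core was in 3 (MFN1, FIS1 and MIEF1), against 10.3% of all windows, and the NRF1 core in OPA1 alone, against 3.05%; in OPA1 the core was read on both strands in 1 overlapping run. No window of the 9 genes held the E-box CACGTG, which 7.26% of all windows hold. The p53 half-site was searched as RRRCWWGYYY (R is A or G, W is A or T, Y is C or T), with no mismatch allowed. It was in 1 MFF window, against 6.63% of all windows. The p53 full site, a pair of half-sites at most 13 bases apart, was in none of the windows of the 9 genes and in 10 of all windows (0.0285%), of which 1 is the DDB2 window printed here. The windows of MDM2 and SPATA18, p53 target genes described below, held no exact match to the p53 half-site or full site either. A match is a description of the letters. Its absence says nothing of sites elsewhere, or of p53 sites in these windows that depart from the exact letters.

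All 10 genes were expressed in every library and passed the filter on low counts in every comparison. Per kilobase of the exon length the table gives, FIS1 was highest at 70.1 ± 9.14 CPM per kb (SD, n = 8 libraries fitted) and OMA1 lowest at 4.43 ± 0.436, and the means differed 15.8 times from highest to lowest. FUNDC1 followed FIS1 at 39.8 ± 1.88 CPM per kb, then MIEF1 at 18.3 ± 0.781 and MFF at 15.1 ± 1.03. PINK1 (8.68 ± 0.521) and DNM1L (8.50 ± 0.582) came next, then MFN2 (6.29 ± 0.244) and MFN1 (6.13 ± 0.526), and then OPA1 at 4.84 ± 0.222 CPM per kb. The ranges over the 8 libraries overlapped for the neighbours PINK1 and DNM1L, MFN2 and MFN1, and OPA1 and OMA1, and did not overlap for the other neighbours in the order. Whether reads covered whole transcripts is not given in the sources used here, and an order per kilobase rests on that.

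**Figure D1:**
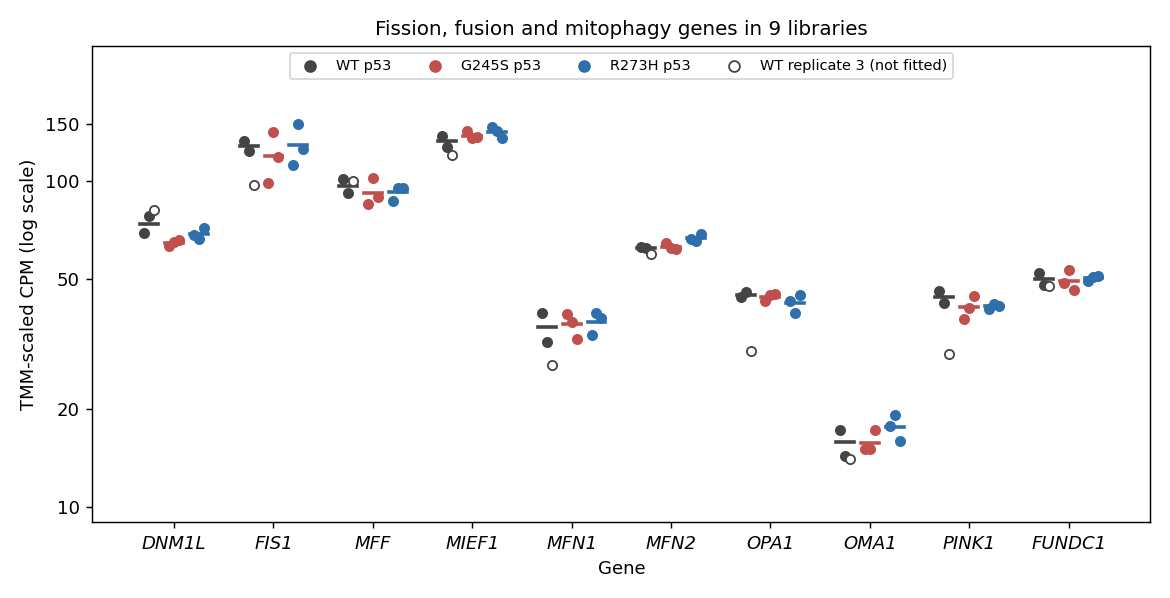
TMM-scaled CPM (log axis) of each of the 10 genes in the WT (grey), G245S (red) and R273H (blue) libraries, 1 point per library, with bars at the mean of the libraries fitted and an open point for WT replicate 3. The 3 groups lie close together for each gene, FIS1 spreads from 99.1 to 150 CPM within the mutants, and the open point is lowest of its gene for FIS1, MIEF1, MFN1, MFN2, OPA1, OMA1 and PINK1.

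Of the fission genes, DNM1L (chr12:32679200-32745650, plus strand) came nearest to a difference. It had 69.5, 78.1 and 81.5 CPM in WT replicates 1, 2 and 3, then 63.2, 65.2 and 65.9 in G245S, and 68.2, 66.4 and 71.7 in R273H. The 3 G245S values lay below every WT value, and R273H replicate 3 lay above WT replicate 1. The log2 fold change of G245S against WT p53 was −0.18 (SE 0.0894, 95% interval −0.37 to 0.01), a ratio of 0.882, and it did not pass edgeR's quasi-likelihood test (Benjamini-Hochberg adjusted p = 0.768 over 15893 genes). R273H against WT p53 gave −0.10 (95% interval −0.29 to 0.09), and the mean of both mutants against WT p53 gave −0.14 (SE 0.0756, 95% interval −0.30 to 0.02, adjusted p = 0.788 in edgeR). DNM1L remained lower in G245S under each of 15 alternatives, at −0.29 to −0.10, and passed in 0 of them.

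The receptors of DNM1L overlapped between the groups in every comparison. FIS1 (chr7:101239458-101252316, minus strand) had 133 and 124 CPM in WT replicates 1 and 2 and 97.7 in WT replicate 3, then 99.1, 142 and 119 in G245S, and 112, 150 and 126 in R273H. Replicates of the same line thus differed by up to 1.43 times, more than the group means. The FIS1 log2 fold changes were −0.10 (95% interval −0.36 to 0.17) for G245S and 0.01 (−0.23 to 0.25) for R273H, each against WT p53. MFF (chr2:227325151-227357833, plus strand) had 101 and 92.1 CPM in WT replicates 1 and 2 and 101 in replicate 3, then 84.9, 102 and 89.4 in G245S, and 87.2, 95.7 and 95.3 in R273H. The MFF values of all 3 groups overlapped, with log2 fold changes of −0.07 (−0.28 to 0.15) and −0.06 (−0.25 to 0.13). MIEF1 (chr22:39499432-39518132, plus strand) had 138, 127 and 120 CPM in WT replicates 1, 2 and 3, then 142, 136 and 137 in G245S, and 146, 143 and 135 in R273H. Its log2 fold changes were 0.07 (−0.12 to 0.26) and 0.09 (−0.09 to 0.28), and the WT and mutant ranges overlapped in the fits.

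Among the fusion genes, MFN2 varied least over the 8 libraries fitted and was the only gene whose R273H libraries all lay above the other groups. MFN2 (chr1:11980181-12015211, plus strand) had 62.7, 62.3 and 59.7 CPM in WT replicates 1, 2 and 3, then 64.5, 62.4 and 61.9 in G245S, and 66.5, 65.6 and 68.9 in R273H. The lowest R273H library was above the highest WT and the highest G245S library. The difference was small and did not pass the test, with log2 fold changes of 0.10 (SE 0.0851, 95% interval −0.08 to 0.28, adjusted p = 0.970 in edgeR) for R273H against WT p53 and 0.08 (SE 0.0728, −0.07 to 0.24, adjusted p = 0.994) for R273H against G245S. For G245S against WT p53 it was 0.02 (−0.17 to 0.20).

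MFN1 (chr3:179347709-179394936, plus strand) had 39.3, 32.1 and 27.4 CPM in the WT libraries, then 39.2, 37.1 and 32.7 in G245S, and 33.6, 39.5 and 38.0 in R273H. The 2 fitted WT libraries spanned nearly the whole range of the mutants, and the log2 fold changes were 0.03 (−0.22 to 0.28) for G245S and 0.05 (−0.19 to 0.29) for R273H against WT p53. The ratio of MFN2 to MFN1 per kilobase ran from 0.927 (WT replicate 1) to 1.15 (R273H replicate 1) over the 8 libraries fitted. On that scale, which rests on the exon lengths given, neither mitofusin was the higher one in every library. In CPM, MFN2 (61.9 to 68.9) was above MFN1 (32.1 to 39.5) in every library fitted. OPA1 (chr3:193593144-193697811, plus strand) had 44.1, 45.7 and 30.2 CPM in WT replicates 1, 2 and 3, then 43.0, 44.8 and 45.1 in G245S, and 43.0, 39.4 and 44.7 in R273H. Apart from WT replicate 3, whose count of 43 allows 21.9 to 40.7 CPM, its values stayed within 1.16 times of each other. The OPA1 log2 fold changes against WT p53 were −0.01 (−0.20 to 0.18) for G245S and −0.08 (−0.28 to 0.12) for R273H.

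OMA1, the protease of OPA1, was the lowest of the 10 genes and had the widest interval of them in each mutant against WT p53. OMA1 (chr1:58415384-58546802, minus strand) had 17.2, 14.4 and 14.1 CPM in the WT libraries, then 15.1, 15.1 and 17.2 in G245S, and 17.7, 19.1 and 15.9 in R273H. Its R273H log2 fold change of 0.15 (SE 0.134, 95% interval −0.14 to 0.43) was the highest of the 10 genes against WT p53 and allowed a ratio of up to 1.35. For G245S it was 0.00 (SE 0.136, −0.29 to 0.29). With 112 to 154 counts per library fitted, counting error alone gave a coefficient of variation of 8.60% for OMA1, of the 9.84% observed.

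PINK1 (chr1:20633458-20651511, plus strand) had 46.2 and 42.3 CPM in WT replicates 1 and 2 and 29.5 in WT replicate 3, then 37.8, 41.0 and 44.3 in G245S, and 40.4, 42.0 and 41.5 in R273H. The 3 R273H libraries lay just below the 2 WT libraries fitted, and above WT replicate 3, whose count of 42 allows 21.3 to 39.9 CPM. The PINK1 log2 fold changes were −0.11 (SE 0.0992, 95% interval −0.32 to 0.11) for G245S and −0.10 (SE 0.0916, −0.30 to 0.10, adjusted p = 0.970 in edgeR) for R273H. FUNDC1 (chrX:44523639-44542859, minus strand) had 52.2, 47.9 and 47.8 CPM in the WT libraries, then 48.6, 53.6 and 46.4 in G245S, and 49.5, 50.8 and 51.1 in R273H. The R273H values of FUNDC1 lay between the 2 fitted WT values, and its log2 fold changes were −0.01 (−0.22 to 0.20) for G245S and 0.01 (−0.18 to 0.20) for R273H.

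**Figure D2:**
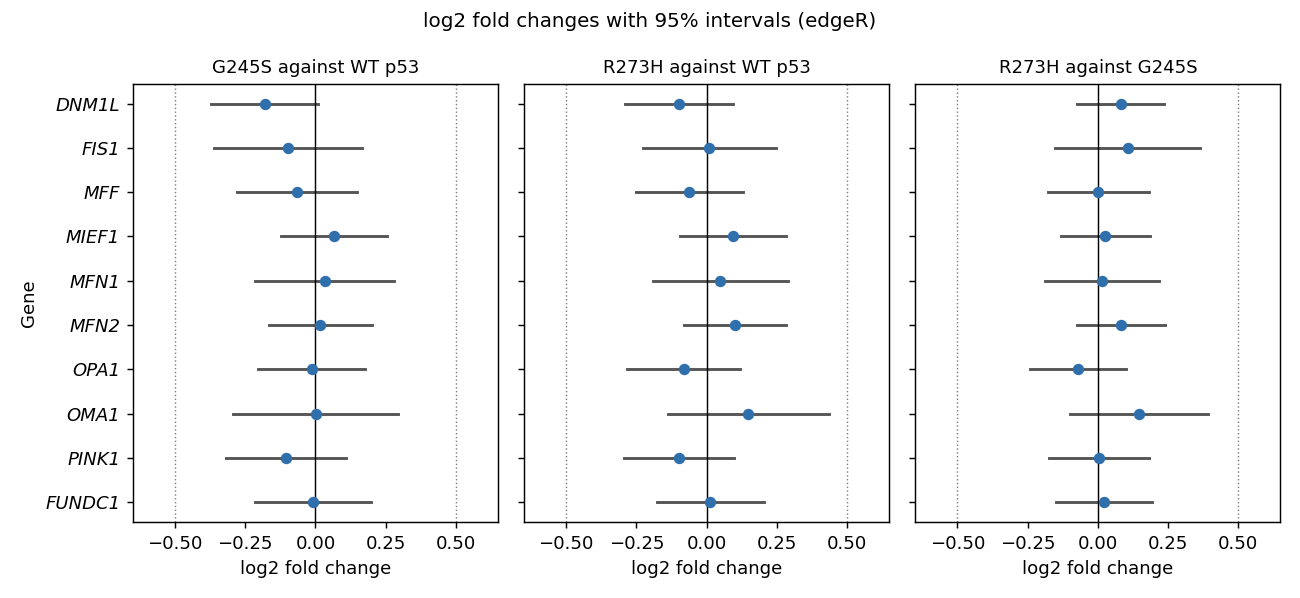
log2 fold change (points) with its 95% interval (lines) from edgeR for the 10 genes in G245S against WT p53, R273H against WT p53 and R273H against G245S, with dotted lines at −0.5 and 0.5. Every interval holds 0 and lies between the dotted lines. The widest upper bound is that of OMA1 in R273H (0.43), and the interval of DNM1L in G245S ends at 0.01.

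In G245S against WT p53, 0 of the 10 genes passed edgeR's quasi-likelihood test at an adjusted p of 0.05, where 0.126% of 15893 genes passed, and DESeq2 also called 0. In R273H against WT p53, 0 passed, against 0.137% of 16022 genes, and in R273H against G245S, 0 passed, against 0% of 15614 genes. With both mutants against WT p53, 0 passed, against 0.201% of 16398 genes. At an unadjusted p of 0.05, 0 of the 10 genes passed edgeR in each of the 4 comparisons, and DESeq2 called 0 of them in each. Over all genes tested, 1058, 979, 741 and 1131 were under an unadjusted 0.05 in edgeR, in the order above. The comparisons with WT p53 share the 2 WT libraries fitted, so their values for a gene are not independent.

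Every 95% interval of the 10 genes lay within ±0.5 on the log2 scale, a ratio of 0.707 to 1.41, in all 4 comparisons. The bounds farthest from 0 against WT p53 were −0.37 for DNM1L in G245S (a ratio of 0.772) and 0.43 for OMA1 in R273H. Differences within these intervals could not be told from 0 at this depth with 2 WT libraries. A change in RNA per cell cannot be told apart from a change in the share of cells that express a gene in these bulk libraries.

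Groups that did not overlap were counted for the 10 genes and for all genes tested. In G245S against WT p53, 1 gene did not overlap (DNM1L, lower), where 22.1% of all genes tested did not. In R273H against WT p53, 2 did not overlap (MFN2 higher, PINK1 lower), against 20.7% of all genes. In R273H against G245S, DNM1L and MFN2 were higher without overlap, against 9.01% of all genes, and DNM1L was at 66.4 to 71.7 CPM in R273H and 63.2 to 65.9 in G245S (log2 fold change 0.08, 95% interval −0.07 to 0.24). With both mutants against WT p53, 0 of the 10 genes were without overlap, against 8.84% of all genes. The median log2 fold change of the 10 genes was −0.01 in G245S and 0.01 in R273H against WT p53, and over all genes tested it was 0.00 in both. By sign alone, 4 of the 10 were higher and 6 lower in G245S, and 6 were higher and 4 lower in R273H. With both mutants against WT p53, 4 were higher and 6 lower. In R273H against G245S, 9 were higher and 1 lower, where 7543 of all 15614 genes tested were higher. All 10 intervals of that comparison held 0.

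The 10 genes differed in how much they varied between libraries. FIS1 had a coefficient of variation of 13% over the 8 libraries fitted, where counting error alone gives 3.11%, and 7.19% of the 7980 genes with a mean of at least 16.5 CPM varied more. MFN2 (3.88%), OPA1 (4.6%) and FUNDC1 (4.71%) varied by no more than their counting error of 4.34%, 5.27% and 4.92%. The median over those 7980 genes was 7.66%. FIS1 was highest in R273H replicate 2 and lowest in G245S replicate 1, 1.52 times apart, and MFF was highest in G245S replicate 2 and lowest in the same G245S replicate 1.

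FIS1 and MFF were high and low in the same libraries, with a Pearson correlation of 0.85 between their log2 CPM over the 8 libraries, the highest of the 45 pairs of the 10 genes. MFF and FUNDC1 followed at 0.80, while OPA1 and OMA1 (−0.705), DNM1L and MIEF1 (−0.700) and MIEF1 and OPA1 (−0.697) were the lowest. The median of the 45 pairs was 0.128 and 17 were negative. These are descriptions over 8 libraries that share groups and scaling, and the pairs are not independent. Over 9660 genes with a mean of at least 10 CPM, the patterns most like DNM1L were those of PDZD8 (0.945) and HDGFL3 (0.944). For MFN2 they were CTDP1 (0.947), TRIM11 (0.908) and PCGF5 (0.904), and for PINK1 they were ACOT13 (0.965), FBL (0.939) and SNHG31 (0.920). With 8 libraries and this many genes, 3 genes exceeded 0.9 with MFN2, 15 with DNM1L and 16 with PINK1.

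The wider machinery was read from 4 lists of 68 genes in all, of which 67 were tested against WT p53. The remaining gene did not pass the filter on low counts. In edgeR's quasi-likelihood test 0 of the 67 passed in G245S, in R273H or in both mutants together. At an unadjusted p of 0.05 the numbers were 4, 4 and 5. Over all genes tested they were 1058 of 15893, 979 of 16022 and 1131 of 16398. DESeq2 called 0 of the 67 in each. In R273H against G245S, 66 were tested and 0 passed. An unadjusted p under 0.05 was found for 2 of them, and for 741 of all 15614 genes tested.

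Among the 15 fission regulators, the median log2 fold change was 0.02 in G245S and 0.03 in R273H. By sign 9 and 10 of them were higher, where 8073 of 15893 and 8119 of 16022 of all genes tested were. MTFR2, a mitochondrial fission regulator, had 18.0 and 17.5 CPM in the fitted WT libraries and 20.4 in WT replicate 3, then 24.97, 20.6 and 19.6 in G245S, and 20.7, 19.7 and 21.0 in R273H. Its mutant values lay above both fitted WT libraries but not all above WT replicate 3, with log2 fold changes of 0.30 (SE 0.133) in G245S and 0.21 (SE 0.115) in R273H, adjusted p = 0.725 and 0.914 in edgeR. SPIRE1, an actin nucleator at sites of fission, gave 0.31 (SE 0.169) in G245S, and MIEF2, the paralog of MIEF1, gave −0.19 (SE 0.167). Both overlapped WT.

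Of the 19 fusion, OPA1 processing and cristae genes, 6 were higher and 13 lower by sign in G245S (median −0.04), and 12 higher and 7 lower in R273H (median 0.02). SPG7, the m-AAA protease subunit paraplegin, had 75.9, 61.7 and 63.4 CPM in G245S against 51.8 and 61.2 in the fitted WT libraries, while WT replicate 3 had 82.9. Its log2 fold change in G245S was 0.26 (SE 0.113, adjusted p = 0.725 in edgeR). SLC25A46, an outer membrane protein that interacts with the fusion machinery, gave −0.21 (SE 0.112) in G245S and −0.17 (SE 0.0936) with both mutants together. Its value in WT replicate 3, which was not fitted, was 37.3 CPM, below every mutant library (38.8 to 50.3).

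The 14 tested genes of the PINK1 pathway had the highest median of the lists, 0.10 in G245S and 0.06 in R273H, with 0 called. By sign 10 and 12 of them were higher, where 8073 of 15893 and 8119 of 16022 of all genes tested were. The 2 counts share the WT libraries fitted. CALCOCO2, the mitophagy adaptor NDP52, had 34.1 and 39.4 CPM in the fitted WT libraries and 38.7 in WT replicate 3, then 43.4, 42.5 and 43.6 in G245S, and 44.7, 39.1 and 41.0 in R273H. With both mutants together it gave 0.21 (SE 0.0864, adjusted p = 0.637 in edgeR). OPTN, a second adaptor, gave 0.20 (SE 0.157) in R273H and overlapped WT.

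**Figure D3:**
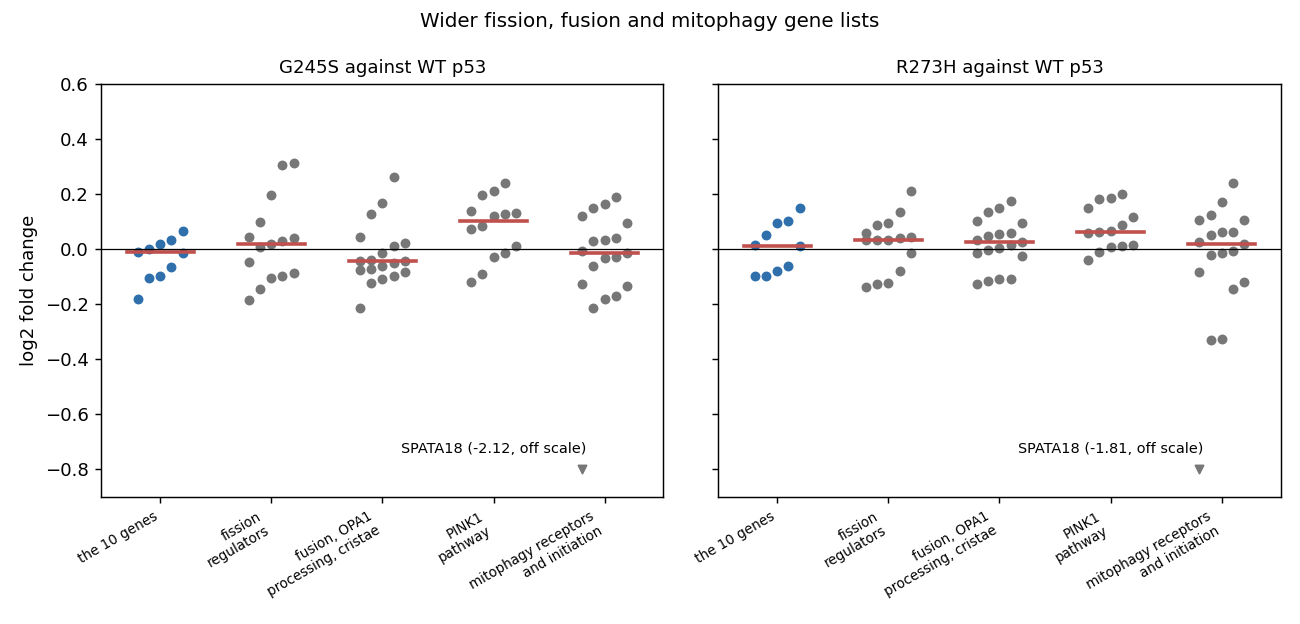
log2 fold changes in G245S (left) and R273H (right) against WT p53, 1 point per gene tested, for the 10 genes (blue) and the 4 wider lists (grey), with the median of each as a red bar. Points lie between −0.33 and 0.31 except SPATA18, drawn as a triangle at the edge of the axis with its value written beside it.

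The mitophagy receptors held the lowest values. BNIP3L (NIX), a hypoxia-inducible outer membrane receptor, had 27.6 and 28.3 CPM in the fitted WT libraries and 29.5 in WT replicate 3, then 22.2, 22.0 and 27.6 in G245S, and 22.0, 23.5 and 21.2 in R273H. The R273H libraries lay below every WT library, and G245S replicate 3 was level with WT replicate 1. The log2 fold changes were −0.22 (SE 0.120) in G245S, −0.33 (SE 0.107, 95% interval −0.56 to −0.10) in R273H and −0.28 (SE 0.102, adjusted p = 0.568 in edgeR) with both together, none of which passed.

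BNIP3, its hypoxia-inducible paralog, split the G245S replicates. It had 89.4 and 76.8 CPM in the fitted WT libraries and 84.3 in WT replicate 3, then 71.9, 68.5 and 143 in G245S, and 60.6, 69.7 and 68.5 in R273H. The log2 fold change was −0.33 (SE 0.0973, adjusted p = 0.499 in edgeR) in R273H and 0.19 (SE 0.234) in G245S, and the latter became −0.24 without G245S replicate 3. MAP1LC3B, the LC3 protein that these receptors bind, gave 0.24 (SE 0.0998, adjusted p = 0.775) in R273H, with 101, 105 and 109 CPM against 98.4 and 79.1 in the fitted WT libraries and 71.7 in WT replicate 3. NIPSNAP2 gave −0.15 (SE 0.0891) in R273H, where its 58.3 to 63.8 CPM held the 59.7 of WT replicate 3, and RB1CC1 (FIP200), a scaffold of autophagy initiation, gave −0.15 (SE 0.0906) with both mutants together.

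SPATA18 (Mieap), a p53-inducible gene of mitochondrial quality control, stood far below the other genes of its list and was picked out after its values were seen. It had 15 and 14 counts in the fitted WT libraries and 4 in WT replicate 3, then 2, 4 and 4 in G245S, and 2, 3 and 7 in R273H. In CPM these were 1.72, 1.80 and 2.81 in WT, 0.204 to 0.515 in G245S and 0.230 to 0.832 in R273H, and no mutant library reached a WT library. The log2 fold changes were −2.12 (SE 0.482, adjusted p = 0.208) in G245S, −1.81 (SE 0.487, adjusted p = 0.372) in R273H and −1.97 (SE 0.428, adjusted p = 0.0945) with both together, so that it missed the threshold of edgeR's quasi-likelihood test in each. Several mutant counts were at or under the floor of 3, and without a filter on low counts it passed in all 3 comparisons with WT p53 (adjusted p = 0.00716, 0.0326 and 0.00175). Over its alternatives the adjusted p reached up to 1 in each single mutant and 0.715 with both together.

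The p53 target genes used to check the labels did change in the same fits. MDM2, the ubiquitin ligase of p53, fell by 0.82 on the log2 scale in G245S and by 0.90 in R273H, PHLDA3, a repressor of Akt, fell by 2.21 and 2.07, and DDB2, a DNA damage recognition protein, fell by 1.39 and 1.62. With both mutants together their adjusted p in edgeR was 1.11e-05, 4.49e-08 and 1.54e-06. DDB2 had 26.7, 25.1 and 28.8 CPM in WT, 9.58, 9.41 and 10.5 in G245S, and 7.37, 9.29 and 8.68 in R273H. Over the 8 libraries fitted DDB2 averaged 13.3 CPM and PHLDA3 12.4 CPM, both below OMA1 at 16.5. MDM2 lost its call with WT replicates 1 and 3 in place of 1 and 2, at −0.69 in G245S (adjusted p = 0.136) and −0.77 in R273H (adjusted p = 0.0642).

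**Figure D4:**
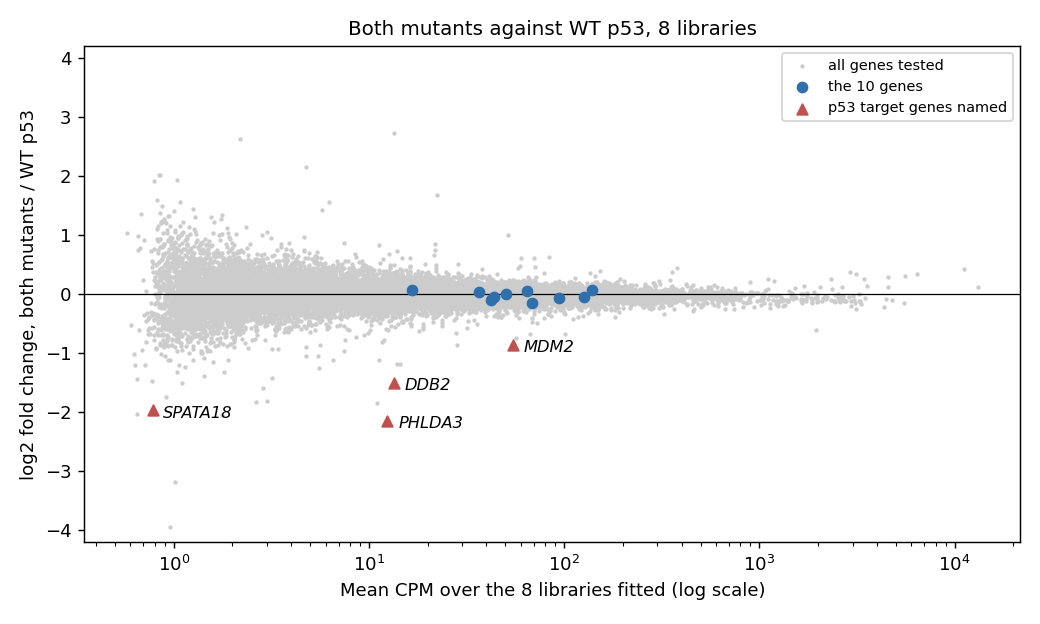
Mean CPM over the 8 libraries fitted (log axis) against the log2 fold change of both mutants against WT p53 for all 16398 genes tested (grey), with the 10 genes in blue and 4 p53 targets as red triangles. The 10 genes lie between −0.14 and 0.08 around the horizontal line at 0. MDM2 (−0.87), DDB2 (−1.51), SPATA18 (−1.97) and PHLDA3 (−2.14) lie below the 10 genes. SPATA18 has a mean of 0.779 CPM, and the lowest log2 fold change of all genes tested is −3.93.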

How the data were processed

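RNA-seq was read from a table in which the authors deposited expected counts per gene (whole or fractional, not normalized) for 9 libraries. Per the study's methods and the submitters' processing notes, reads were filtered with fastp 0.24.0, aligned to GRCh38 with STAR 2.7.11, stripped of duplicates by molecular identifier and counted with featureCounts (Subread 2.1.1) by strand over exon and 3′ UTR features, with multi-mapping reads shared as fractions. The other deposited column used is the exon length per gene, and 9 per-sample CPM columns were not used.

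Counts were rounded. A WT library under 0.5 times the median total of the other 8 (4096044 counts) was left out of the fits, which removed WT replicate 3. Genes passing filterByExpr were scaled by TMM and tested with edgeR 4.0.16 (limma 3.58.1, R 4.3.3, data.table at 1.17.8), quasi-likelihood test, Benjamini-Hochberg adjustment over all genes tested in a comparison, threshold 0.05, 2 WT against 3 mutant libraries. The pipeline was tested on simulated data. The exact Poisson intervals given for WT replicate 3 and the floor of 3 counts cover counting error only. The intervals of the log2 fold changes were taken from the edgeR fits with their SE. Figures used Python 3.11.15, numpy 2.4.6 and matplotlib 3.10.9.

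Named were the 10 genes, any listed gene past the threshold, the 3 highest and 3 lowest of the wider lists per comparison with WT at a mean of at least 5 CPM, MDM2, PHLDA3 and DDB2, and the 3 genes most like DNM1L, MFN2 and PINK1. SPATA18 falls outside this rule and was named after its values were seen. Some items the rule would name are not reported here. The genes and lists were chosen with earlier results of these data known. Alternatives were DESeq2 1.42.0, other scalings and filters, other choices of WT libraries, 1 fit of all groups, a replicate block, and leaving out each replicate.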

Additional observations from a re-analysis of the deposited data

How the results depend on the processing

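Over 600 values of the 10 genes under the alternatives, 0 were called, the lowest adjusted p was 0.327, and 71 changed sign. Leaving out each replicate in turn gave 0 of the 10 genes called in every comparison, and a lone WT library was then assumed to vary like the mutants. The number of all genes called moved more. It was 20 in G245S, 22 in R273H, 0 between the mutants and 33 for both mutants. With no filter on low counts these became 144, 93, 125 and 122. In each comparison 1 gene of the wider lists was then called, SPATA18 against WT p53 and BNIP3 between the mutants. BNIP3 had 143 CPM in G245S replicate 3, while 71.9 and 68.5 in G245S replicates 1 and 2 overlapped R273H (60.6 to 69.7). With the filter, its adjusted p between the mutants was 0.994 in edgeR. With all 3 WT libraries G245S had 10. With WT replicates 1 and 3 the counts were 3, 4 and 14 for G245S, R273H and both, and MDM2 no longer passed in G245S (adjusted p = 0.136) or R273H (adjusted p = 0.0642). With WT replicates 2 and 3 R273H had 13. DESeq2 called 1 gene between the mutants. Leaving out single replicates gave 10 to 30 genes in G245S, 16 to 29 in R273H, 0 to 3 between the mutants and 17 to 36 for both. G245S had 13 without WT replicate 2 and 10 without G245S replicate 3, and both mutants had 17 without WT replicate 2. Between the mutants, 3 were called without G245S replicate 2 and 1 without R273H replicate 3. The cause was not tested.

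Same-numbered libraries had correlations of their deviations between −0.346 and 0.42. Pairs with WT gave −0.346 to −0.135, where the deviations of the 2 fitted WT libraries mirror each other. Between the mutants the same numbers gave 0.312, 0.42 and 0.043. R273H replicate 3 did not correlate best with its own number, with 0.13 for G245S replicate 1. The numbers were not taken to pair the libraries, and whether same-numbered libraries share a batch was not tested. A replicate block gave 76, 47 and 59 genes in G245S, R273H and between the mutants, and called 1 gene of the wider lists, SPATA18, in R273H and in both mutants together, with 0 of the 10 genes called.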
